A study of Irpex lacteus with 9 samples.

Results

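The proteins of the mitochondrial ribosome of *Irpex lacteus*, a white-rot fungus that degrades the lignin and polysaccharides of plant cell walls, were followed as transcripts on wheat straw. Members were all genes whose Swiss-Prot product name is a mitochondrial, 37S or 54S ribosomal protein, which gave 40 of the 19212 genes in the deposited table. Of these, 16 belong to the small subunit (named 37S in fungi) and 24 to the large subunit (named 54S). The straw received distilled water, NH4Cl or NaNO3, and 3 libraries were sequenced for each. The labels give no strain, dose, culture time or origin of the replicates, so the p-values cover only how these libraries vary, which may be technical. The design text speaks of another fungus, *Tricholoma album*, and the species of the organism label and the series title was taken.

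Mitochondria keep ribosomes of bacterial descent, which translate the few messengers of the mitochondrial genome, mainly membrane-embedded core subunits of the respiratory chain and of ATP synthase. In fungi most of the ribosome's proteins are encoded in the nucleus, made on cytosolic ribosomes and imported, while its RNAs come from mitochondrial DNA. In *Saccharomyces cerevisiae* loss of most of these proteins prevents growth by respiration. The comparisons ask which of their transcripts differ with the nitrogen source added to the straw.

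The names come from other fungi, 18 from *S. cerevisiae* and 15 from *Schizosaccharomyces pombe*, whose numbering is not the bacterial one. The bacterial family given here is that of the table's KEGG column or, where named so, of its protein domain column. All 40 members carry a protein domain, 27 lie in the KEGG ribosome pathway and 7 have a GO term that names the mitochondrion. The label fits the domains, while some names and family numbers differ between the columns. The L16 gene has an L16 domain but a replication factor C name in KEGG, the L35 gene carries a phosphatidylethanolamine-binding domain, and the genes named L2 (NewGene_3644) and L27 (BC629DRAFT_1543096) are both of the bacterial L27 family. There are 33 different product names, and 7 of them stand on 2 genes each. Pairs were matched on the name, so the L2 and L27 genes are not counted as a pair.

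Depth was 17896230 to 23194078 counts per library, and 14808 genes passed the filter on low counts. No library pair was identical (0 pairs). NaNO3 replicate 1 and NH4Cl replicate 3 stood farthest from their group mates, with root mean square log2 distances of 0.818 and 0.686 over the tested genes, against 0.387 to 0.637 for the other 7 libraries. Some of the results that rest on them are also given without both or without 1 of them. No gene matched the wheat photosynthesis names (0 genes).

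Of the 40 members, 37 passed the filter and 3 did not. The untested ones are all small subunit genes. The gene for S12, which in bacteria sits at the decoding site (BC629DRAFT_1591484), and 1 of the 2 genes named MRP2 (BC629DRAFT_775353), of the S14 family of the subunit's head, had 0 counts in all 9 libraries. The other MRP2 gene, NewGene_1433, was present at 24.1 to 45.7 CPM (counts scaled to library size with TMM factors) in the same libraries. The third untested gene, a copy named S18 (BC629DRAFT_1563925, of the S11 family), had 4 to 13 counts per library.

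Levels per transcript length, as the authors' FPKM averaged over the 9 libraries, had a median of 17.5 among the 37 tested members and ran from 0.606 to 74.6. The median was 8.40 over all tested genes, 75.1 over subunits of oxidative phosphorylation and 476 over cytosolic ribosomal proteins. The L16 gene (BC629DRAFT_1253470), whose bacterial relative lies near the peptidyl transferase centre, had the highest level at 74.6 ± 4.9 FPKM (SD, n = 9 libraries). It was followed by L19 (BC629DRAFT_1583378, of the L11 family at the base of the factor-binding stalk) at 57.8 ± 9.0 FPKM and by S19 (BC629DRAFT_1285071, in the small subunit's head) at 53.7 ± 10.8 FPKM. These last values overlap, as do those of L32 (BC629DRAFT_1279177) at 52.9 ± 11.0 FPKM and SWS2 (BC629DRAFT_1278910, of the S13 family, whose bacterial relative bridges the subunits) at 46.7 ± 5.6 FPKM. L9 (BC629DRAFT_1635390, of the L3 family near the peptidyl transferase centre) came sixth at 41.9 ± 2.7 FPKM.

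**Figure D1:**
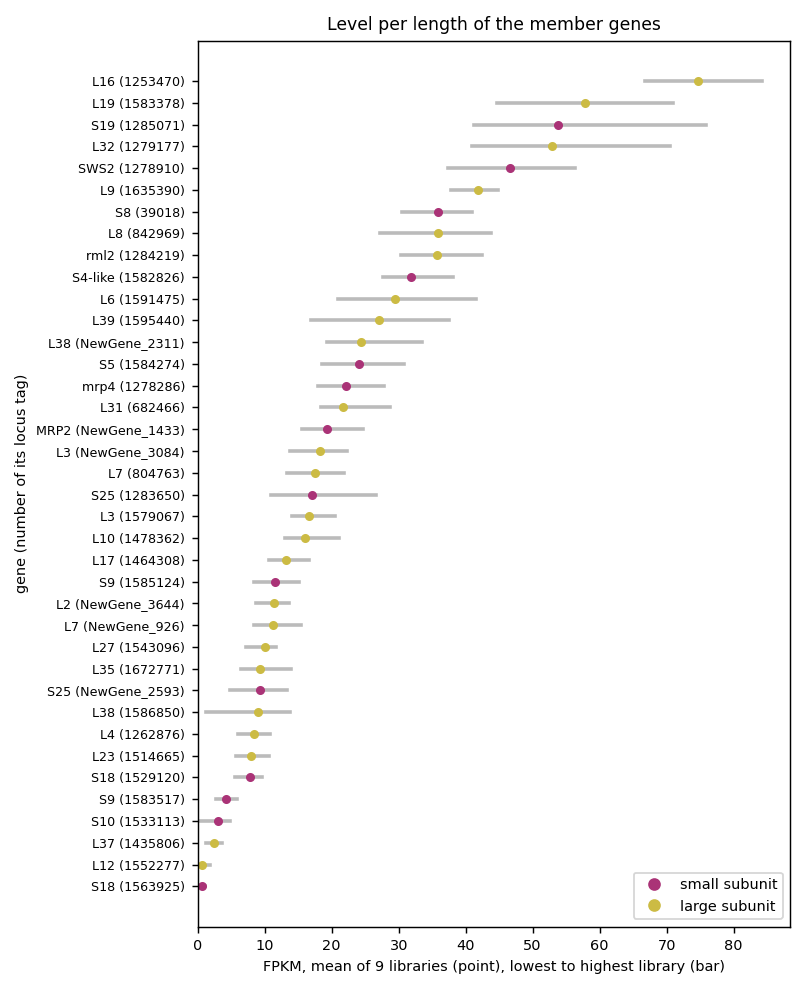
FPKM of the 38 member genes with any count, as the mean over 9 libraries (point) and the lowest to highest library (grey bar), coloured by subunit. Levels fall gradually from L16 at 74.6 FPKM, neighbouring ranges overlap, and both subunits are spread over the whole range.

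The lowest tested levels were those of L12, L37 and S10. L12 (BC629DRAFT_1552277), of the L7/L12 family that forms the stalk and recruits translation factors in bacteria, averaged 0.606 FPKM. L37 (BC629DRAFT_1435806, of the mitochondrial L54 family) averaged 2.51 FPKM, and S10 (BC629DRAFT_1533113, in the small subunit's head) 3.05 FPKM. S10 had 0 counts in NH4Cl replicate 1 and 1.82 to 4.56 CPM in the other 8 libraries. Replicates of a group were close: the members' median coefficient of variation was 12.7%, against 19.9% over all tested genes and 22.5% over cytosolic ribosomal proteins.

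Together the 40 members took a small share of each library, largest with water. The share was 0.0769% (95% Wilson interval 0.0758 to 0.0780), 0.0808% (0.0795 to 0.0820) and 0.0714% (0.0702 to 0.0727) of the counts with water. With NH4Cl it was 0.0652% (0.0640 to 0.0664), 0.0619% (0.0607 to 0.0630) and 0.0642% (0.0631 to 0.0654). With NaNO3 it was 0.0706% (0.0694 to 0.0718), 0.0601% (0.0590 to 0.0612) and 0.0678% (0.0666 to 0.0689). All 6 salt libraries lay below all 3 water libraries, although the intervals of NaNO3 replicate 1 and water replicate 3 overlap, and the intervals cover counting error only. By share of counts NaNO3 replicate 1 was the highest salt library. By summed TMM-scaled CPM it was the lowest of all libraries, at 595.1 against 595.3 in NH4Cl replicate 3, so its rank depends on the scaling. In these bulk libraries, fewer cells with the transcripts and less RNA per cell cannot be told apart.

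**Figure D2:**
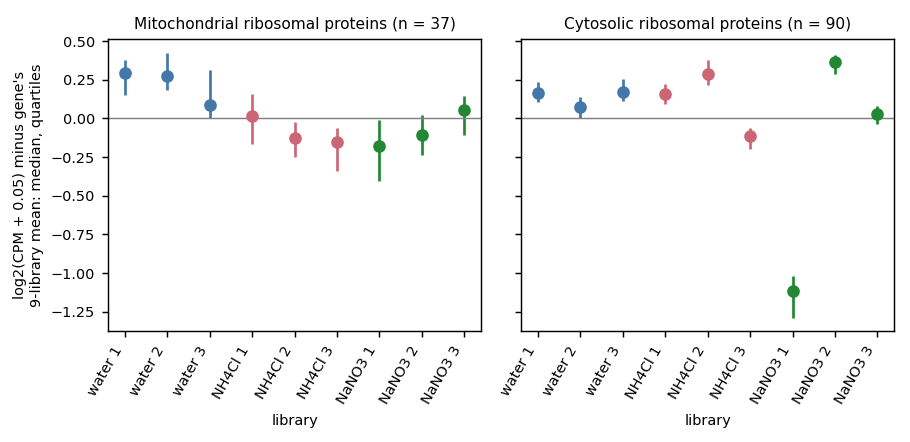
Median (point) and quartiles (bar) over genes of log2(CPM + 0.05) minus each gene's mean over 9 libraries, for 37 mitochondrial and 90 cytosolic ribosomal protein genes, by library and coloured by group. The mitochondrial medians are 0.09 to 0.29 with water and at most 0.05 with a salt, while the cytosolic medians are lowest in NaNO3 replicate 1, at -1.12.

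Per gene the shift was small. Relative to each gene's own mean, the members' median log2 level was 0.29, 0.27 and 0.09 in the water libraries. It was 0.02, -0.12 and -0.15 with NH4Cl and -0.18, -0.11 and 0.05 with NaNO3. The small subunit's medians were 0.30, 0.28 and 0.06 with water, -0.04, -0.17 and -0.15 with NH4Cl, and -0.20, -0.09 and 0.05 with NaNO3. Those of the large subunit were 0.29, 0.26 and 0.10 with water, 0.02, -0.11 and -0.16 with NH4Cl, and -0.16, -0.14 and 0.06 with NaNO3. A difference between the subunits was not tested. Cytosolic ribosomal proteins had another pattern, with medians of 0.07 to 0.17 with water, -0.11 to 0.29 with NH4Cl, and -1.12, 0.37 and 0.03 with NaNO3.

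In NH4Cl against water no member was called by edgeR's quasi-likelihood test (0 of 37 at a Benjamini-Hochberg adjusted p under 0.05), where 0.675% of all tested genes were called in either direction and 0.398% lower. Without adjustment, 11 members had p under 0.05 and a lower level with NH4Cl, and 0 a higher one, against 11% and 7.77% of all tested genes. In 18 members all 3 NH4Cl libraries lay below all 3 water libraries and in 0 above, where 16.1% and 11.9% of all genes did so. The median log2 change was -0.34, against -0.02 over all genes, and 35 of the 37 changes were below 0. DESeq2 called 4 members and limma-voom with library weights 7, all lower, with 4.63% and 8.16% of all genes called lower; 1 of the 7 is L12. Without NH4Cl replicate 3 and NaNO3 replicate 1, edgeR called 2 members lower, L12 and S5, at a median of -0.27, with 3.21% of all genes called lower. L12 passed the filter through the water libraries alone and had 0 counts in all salt libraries left, so it had to be lower.

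NaNO3 against water gave 1 member called of 37, L32, which fell, where 5.06% of all tested genes were called in either direction and 3.88% lower. Without adjustment, 15 members had p under 0.05 and a lower level with NaNO3, and 0 a higher one, against 14% and 10.8% of all genes. The libraries did not overlap in 19 members, all lower with NaNO3, where 18.8% of all genes did so in that direction and 14.2% in the other. The median log2 change was -0.31, against -0.03 over all genes, and 33 of 37 changes were below 0. DESeq2 and limma-voom called 5 members each, all lower and L12 among them in both, with 6.88% and 10.3% of all genes called lower. Without the libraries NaNO3 replicate 1 and NH4Cl replicate 3, edgeR called 2 members lower, L12 and the S25 gene NewGene_2593, at a median of -0.23, with 4.75% of all genes called lower, and here too the filter fixed the direction of L12. Both comparisons use the same 3 water libraries, so their directions are not independent of each other.

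**Figure D3:**
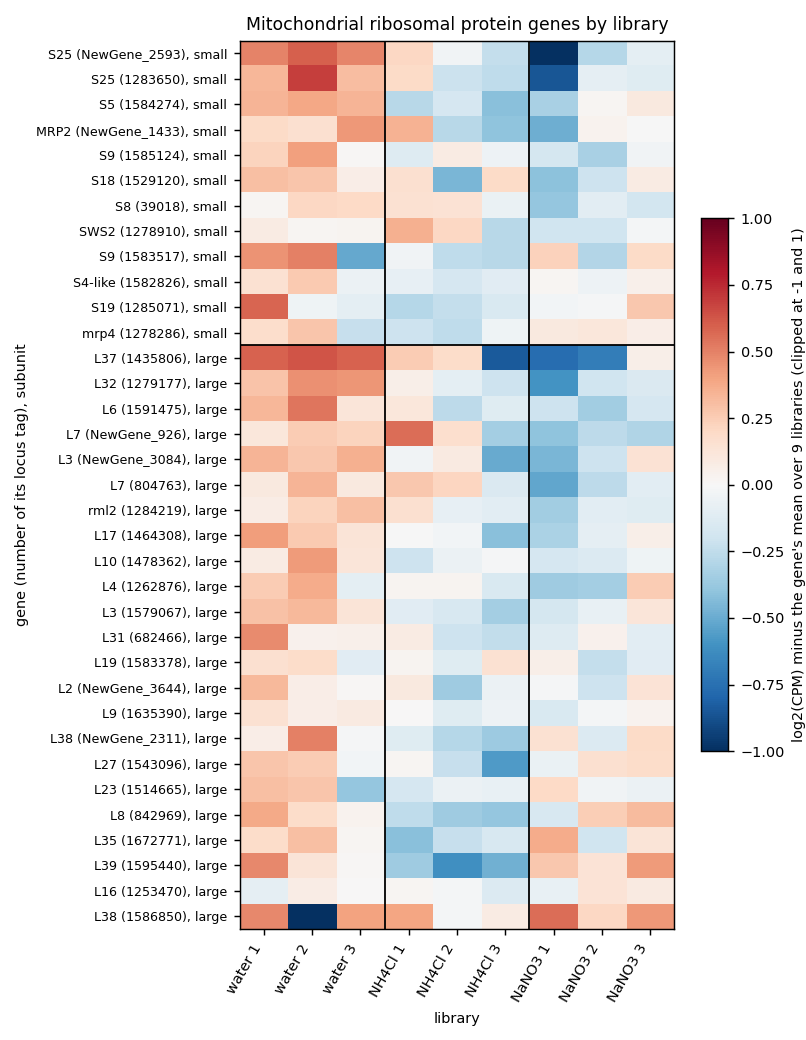
log2 CPM of 35 tested members in each of the 9 libraries, as the difference from the gene's mean (red above, blue below, clipped at -1 and 1), small subunit above the line and large subunit below it, in the order of the change with NaNO3. S10 and L12 are left out because some libraries have 0 counts. Red cells gather in the water columns, and L16 near the bottom stays close to white.

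Among small subunit members the changes were mostly below 0 and none was called in either comparison with water (0 of 13 tested, by edgeR). Of all tested genes 0.398% were called lower with NH4Cl and 3.88% with NaNO3. The median log2 change was -0.34 with NH4Cl and -0.37 with NaNO3. At an unadjusted p under 0.05, 2 of 13 were lower with NH4Cl and 5 of 13 with NaNO3, or 15.4% and 38.5%, against 11% and 14% of all tested genes. The genes described next, beyond those with the largest changes or levels, were chosen after their values were seen, from the members with an unadjusted p under 0.05.

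S5 (BC629DRAFT_1584274), whose bacterial relative lines the entry of the messenger channel, stood at 19.7, 20.4 and 19.7 CPM with water, at 12.8, 13.8 and 11.7 CPM with NH4Cl and at 12.4, 15.8 and 16.7 CPM with NaNO3. Every salt library lay below every water library. The log2 change was -0.64 ± 0.15 (SE) with NH4Cl, at an adjusted p of 0.0736 from edgeR, and -0.41 ± 0.14 with NaNO3 (adjusted p = 0.127). For NH4Cl the gene was called by DESeq2 (adjusted p = 0.00533), by limma-voom (0.0165) and without the 2 distant libraries (0.0495). In the authors' deposited table its log2 change with NH4Cl is -0.61 at an FDR of 0.0098, the lowest of any member, and within their fold limit of 2 it is not called.

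S25, a protein of mitochondrial ribosomes only (the S23 family), is named on 2 genes, which could share reads and may not be independent. NewGene_2593 stood at 12.2, 13.1 and 12.1 CPM with water, at 10.003, 8.43 and 7.32 CPM with NH4Cl and at 3.96, 7.10 and 8.07 CPM with NaNO3. Water was above both salts in every library, and NaNO3 replicate 1 was the lowest. Its log2 change with NaNO3 was -0.97 ± 0.25 (adjusted p = 0.0620 by edgeR, 0.0126 by DESeq2), and -0.70 without the 2 distant libraries (adjusted p = 0.0394). BC629DRAFT_1283650 stood at 21.8, 27.95 and 21.5 CPM with water, at 19.7, 14.9 and 14.5 CPM with NH4Cl and at 9.56, 16.3 and 15.8 CPM with NaNO3. Its order was the same and its log2 change with NaNO3 was -0.77 ± 0.23 (adjusted p = 0.0906), and -0.55 without the 2 distant libraries (adjusted p = 0.112). Summed over both genes, S25 had 33.6 to 41.0 CPM with water, 21.8 to 29.7 with NH4Cl and 13.5 to 23.9 with NaNO3.

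S8 (BC629DRAFT_39018), which in bacteria binds the central domain of the small subunit RNA, was not called in any comparison. It stood at 27.4, 31.2 and 31.0 CPM with water, at 30.0, 29.8 and 25.8 CPM with NH4Cl and at 20.7, 25.1 and 23.8 CPM with NaNO3. The NaNO3 libraries lay below those of both other groups, while NH4Cl overlapped water. The log2 change with NaNO3 was -0.37 ± 0.13 (adjusted p = 0.134), and NH4Cl against NaNO3 gave 0.30 ± 0.13 (adjusted p = 0.234).

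S19 and SWS2 had the highest FPKM of the small subunit. S19 stood at 23.8, 15.5 and 14.9 CPM with water, at 13.01, 13.5 and 14.3 CPM with NH4Cl and at 15.6, 15.8 and 19.1 CPM with NaNO3, so that water replicate 1 was alone high and the NH4Cl libraries lay below water. Its log2 change was -0.41 ± 0.20 with NH4Cl (adjusted p = 0.308), and with NaNO3 it was -0.10 ± 0.20 (adjusted p = 0.784) but 0.15 without water replicate 1. SWS2 stood at 27.5, 26.5 and 26.5 CPM with water, at 33.3, 30.0 and 21.5 CPM with NH4Cl and at 22.7, 22.8 and 25.8 CPM with NaNO3. The NH4Cl libraries straddled water and the NaNO3 libraries lay below it, at a log2 change of -0.18 ± 0.17 (adjusted p = 0.543). The log2 change of SWS2 with NH4Cl, 0.08 ± 0.17 (adjusted p = 0.849), was -0.03 without NH4Cl replicate 1.

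S9, whose bacterial relative reaches the transfer RNA in the P site, is named on 2 genes. BC629DRAFT_1585124 stood at 15.0, 17.1 and 12.9 CPM with water, at 11.7, 13.6 and 12.4 CPM with NH4Cl and at 11.3, 10.2 and 12.5 CPM with NaNO3. The NaNO3 libraries lay just below water, and the log2 change was -0.40 ± 0.15 (adjusted p = 0.146). BC629DRAFT_1583517 was lower, at 3.18 to 6.45 CPM in all libraries, with overlapping groups. S10, given above, had log2 changes of -0.44 ± 0.89 with NH4Cl and -0.37 ± 0.89 with NaNO3, and the NH4Cl value became 0.16 without NH4Cl replicate 1, the library at 0. The NaNO3 value was -0.15 without NaNO3 replicate 1.

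**Figure D4:**
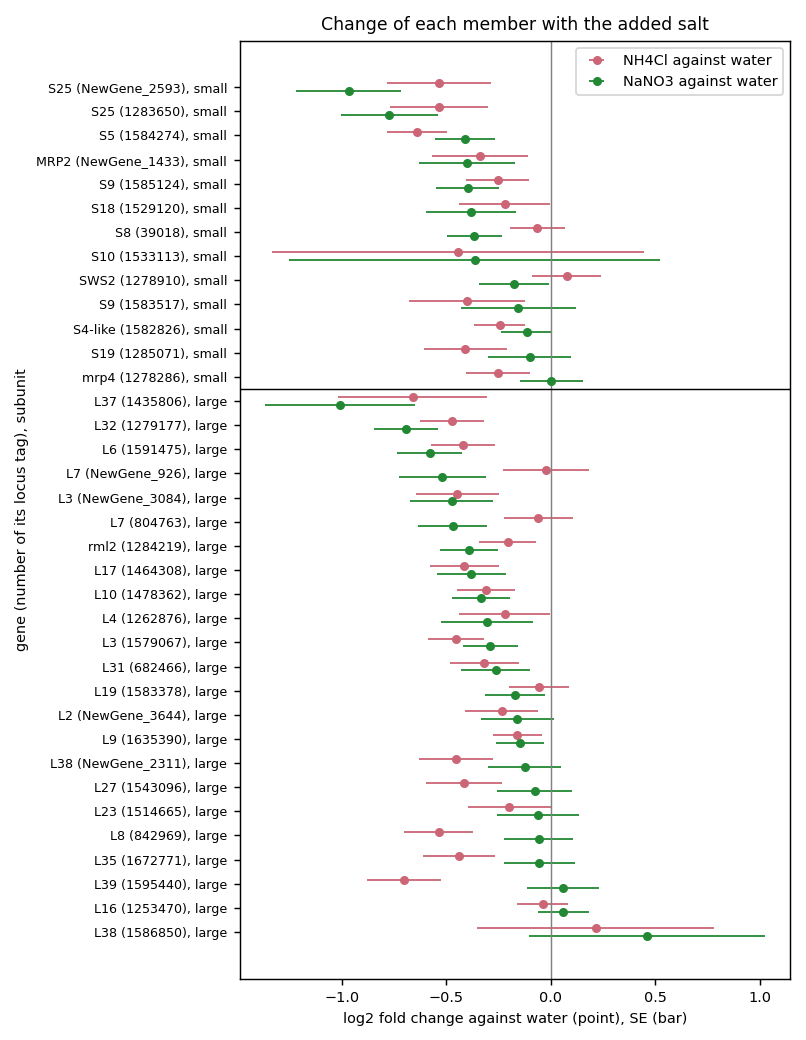
log2 fold change against water (point) with its SE (bar) for 36 members, with NH4Cl in rose and NaNO3 in green, small subunit above the line and large subunit below. L12 is left out because it has no counts with NaNO3. Most points lie between -0.7 and 0, and at the bottom of the large subunit L8, L35 and L39 are lower with NH4Cl while their NaNO3 points lie near 0.

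Among the 24 large subunit members the median log2 change was -0.37 with NH4Cl and -0.28 with NaNO3. None was called with NH4Cl (0 by edgeR) and 1 lower with NaNO3, or 4.17%, against 0.398% and 3.88% of all tested genes called lower. At an unadjusted p under 0.05, 9 were lower with NH4Cl and 10 with NaNO3, or 37.5% and 41.7%, against 11% and 14% of all genes. L12, which passed the filter through the water libraries alone, is among the 10. Of the members near the peptidyl transferase centre, L16 did not move beyond its spread. Its levels were 44.9, 50.4 and 47.9 CPM with water, 48.6, 47.3 and 43.5 CPM with NH4Cl and 45.6, 52.8 and 51.0 CPM with NaNO3. The groups overlapped, and the log2 changes were -0.04 ± 0.12 with NH4Cl, whose sign turned under several settings, and 0.06 ± 0.12 with NaNO3 (adjusted p = 0.900 and 0.795).

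L9 stood at 53.2, 50.2 and 51.0 CPM with water, at 48.1, 44.0 and 46.1 CPM with NH4Cl and at 43.2, 47.2 and 49.1 CPM with NaNO3. All salt libraries were below all water libraries by a small margin, with log2 changes of -0.16 ± 0.12 and -0.15 ± 0.12 (adjusted p = 0.497 and 0.468). The protein named rml2 (BC629DRAFT_1284219, with an L2 domain), a family needed in bacteria for joining the subunits, stood at 48.1, 53.4 and 56.3 CPM with water, at 51.0, 43.2 and 42.4 CPM with NH4Cl and at 35.8, 42.4 and 42.0 CPM with NaNO3. Only the NaNO3 libraries of rml2 lay wholly below water, at a log2 change of -0.39 ± 0.14 (adjusted p = 0.129).

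L32 was the one member called in any comparison. Its levels were 22.0, 24.7 and 24.5 CPM with water, 18.8, 16.8 and 15.6 CPM with NH4Cl and 11.9, 15.7 and 16.3 CPM with NaNO3. All salt libraries lay below all water libraries, and NaNO3 replicate 1 was the lowest. It fell with NaNO3 by 0.69 ± 0.15 on the log2 scale, from 23.7 ± 1.5 to 14.6 ± 2.4 CPM (SD, n = 3; adjusted p = 0.0429 by edgeR's quasi-likelihood test). With NH4Cl the log2 change was -0.47 ± 0.15 (adjusted p = 0.151), and the direct comparison of the salts gave 0.22 ± 0.15 (adjusted p = 0.442).

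The call of L32 was close to its threshold. The adjusted p was 0.0512 without both distant libraries, at a log2 change of -0.55. When single libraries were left out it ran from 0.0464 to 0.155, past the threshold without NH4Cl replicate 1 or 3 and lost without each of the other 7, and the log2 change stayed between -0.75 and -0.56. Over all 19 alternatives the adjusted p ran from 0.00318 to 0.155 and 9 kept the call. In the authors' deposited table L32 has a log2 change of -0.67 with NaNO3 at an FDR of 0.0111.

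Members of the stalk region included the extremes. L12 stood at 1.68, 1.15 and 1.01 CPM with water, at 0, 0 and 0.965 CPM with NH4Cl, and at 0 in all 3 NaNO3 libraries. With a floor of 3 counts per library, water was at least 8.44-fold higher than NaNO3. This gene passed the filter through the water libraries alone, so it had to differ. It is among the non-overlapping members of both comparisons with water and among the 15 with NaNO3. Set at its bound it was still the lowest member with NaNO3, so the median could not change. edgeR gave adjusted p = 0.0879 with NaNO3 and 0.421 with NH4Cl.

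L6 (BC629DRAFT_1591475), whose bacterial relative lies close to the stalk base, stood at 25.7, 29.6 and 22.2 CPM with water, at 22.1, 17.03 and 18.7 CPM with NH4Cl and at 17.7, 15.99 and 18.1 CPM with NaNO3. The salt libraries were below water, NH4Cl replicate 1 by the least. The log2 change was -0.58 ± 0.15 with NaNO3 (adjusted p = 0.0659 by edgeR and 0.0235 by DESeq2). L19 stood at 31.1, 31.6 and 25.7 CPM with water, at 28.4, 25.6 and 30.9 CPM with NH4Cl and at 29.0, 23.6 and 25.8 CPM with NaNO3. Its groups overlapped, at log2 changes of -0.06 ± 0.14 with NH4Cl and -0.17 ± 0.14 with NaNO3 (adjusted p = 0.866 and 0.491).

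L7, of the L5 family in the central protuberance of the bacterial large subunit, is named on 2 genes and was lower with NaNO3 than with water, with NH4Cl overlapping both. NewGene_926 stood at 13.9, 15.4 and 15.0 CPM with water, at 19.0, 14.5 and 10.2 CPM with NH4Cl and at 9.74, 10.8 and 10.5 CPM with NaNO3. BC629DRAFT_804763 stood at 21.6, 25.5 and 21.6 CPM with water, at 24.2, 23.4 and 18.2 CPM with NH4Cl and at 14.1, 16.8 and 18.7 CPM with NaNO3. The NH4Cl libraries were wide apart in both, with replicate 3 the lowest. The log2 changes with NaNO3 were -0.52 ± 0.21 and -0.47 ± 0.17 (adjusted p = 0.170 and 0.128).

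Other members without a call fill the lower end. L37 stood at 1.51, 1.55 and 1.51 CPM with water, at 1.19, 1.14 and 0.559 CPM with NH4Cl and at 0.592, 0.619 and 1.05 CPM with NaNO3. All salt libraries were below all water libraries, and the log2 changes of -0.66 ± 0.36 and -1.01 ± 0.36 were among the most negative of the members, at low counts (adjusted p = 0.351 and 0.131). The NH4Cl value was -0.33 without NH4Cl replicate 3 and -0.36 without both distant libraries. The 2 genes named L3 (the mitochondrial L44 family, related to ribonuclease III) had 51.5 to 53.7 CPM in sum with water, 32.0 to 42.6 with NH4Cl and 34.5 to 47.2 with NaNO3. For BC629DRAFT_1579067 alone the log2 change with NH4Cl was -0.45 ± 0.13 (adjusted p = 0.127 by edgeR and 0.0446 by DESeq2).

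The direct comparison of NH4Cl with NaNO3 called no member (0 of 37 by edgeR), where 1.09% of all tested genes were called. At an unadjusted p under 0.05, 3 members were higher with NH4Cl and 2 lower, against 10.9% and 10.2% of all genes. The libraries did not overlap in 2 members higher and 5 lower with NH4Cl, against 12.9% and 12.3%. The median log2 change was -0.01, against 0.02 over all genes. DESeq2 and limma-voom called the same 2 genes, L39 and L8, with 4.82% and 3.95% of all genes called lower, and edgeR called 0 members without the 2 distant libraries, with 3.52% of all genes called lower.

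L39 (BC629DRAFT_1595440, of the L33 family) stood at 7.53, 5.90 and 5.42 CPM with water, at 4.21, 3.53 and 3.86 CPM with NH4Cl and at 6.51, 5.91 and 7.23 CPM with NaNO3. The NH4Cl libraries lay below all others, and NaNO3 overlapped water. NH4Cl against NaNO3 gave a log2 change of -0.76 ± 0.18 (adjusted p = 0.0749 by edgeR, 0.0106 by DESeq2 and 0.0333 by limma-voom), and NH4Cl against water -0.70 ± 0.18 (adjusted p = 0.0930). In the authors' deposited table the difference between the salts is -0.76 at an FDR of 0.0261. NaNO3 against water was 0.06 ± 0.17, and -0.04 without water replicate 3.

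L8 (BC629DRAFT_842969), of the L17 family beside the exit of the peptide tunnel in bacteria, stood at 79.8, 69.9 and 63.0 CPM with water, at 51.4, 48.1 and 47.1 CPM with NH4Cl and at 54.9, 72.9 and 76.4 CPM with NaNO3. Again the NH4Cl libraries lay below all others, with NaNO3 replicate 1 nearest to them. The log2 change was -0.48 ± 0.16 against NaNO3 (adjusted p = 0.150 by edgeR and 0.0464 by DESeq2) and -0.54 ± 0.16 against water (adjusted p = 0.134). L35 (BC629DRAFT_1672771) stood at 14.6, 15.8 and 13.02 CPM with water, at 9.60, 10.9 and 11.5 CPM with NH4Cl and at 16.6, 11.2 and 14.0 CPM with NaNO3. Its NH4Cl libraries lay below water, and 1 NaNO3 library fell among them (log2 change against NaNO3 -0.38 ± 0.17, adjusted p = 0.244, and -0.19 without NaNO3 replicate 1).

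**Figure D5:**
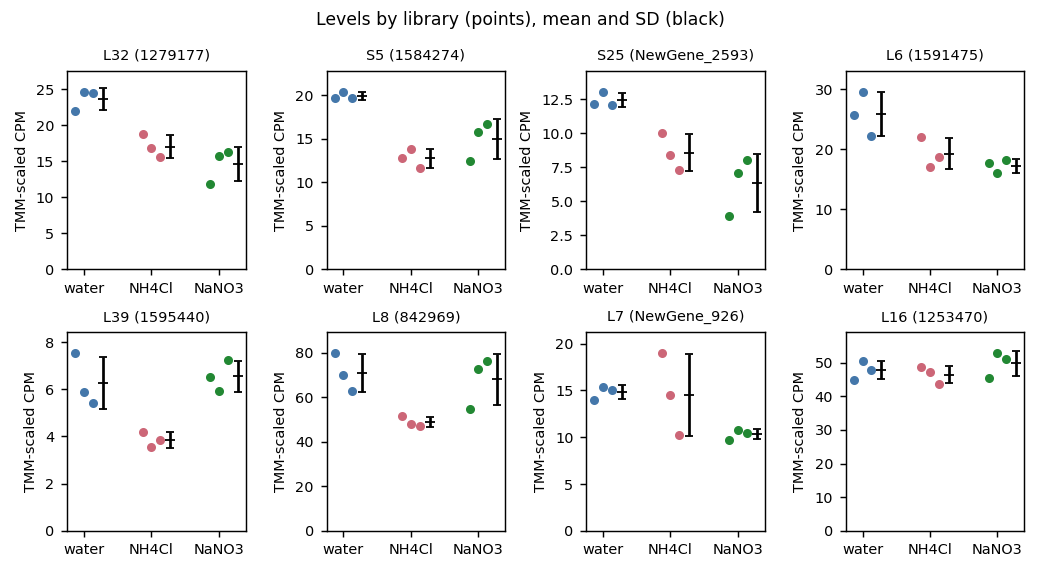
TMM-scaled CPM of 8 members in each library (coloured points) with the group mean and SD (black), each on its own axis from 0. L32, S5, S25 and L6 are highest with water, L39 and L8 are lowest with NH4Cl, L7 is lowest with NaNO3, and L16 is level across groups.

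The 5 pairs of tested genes that share a product name kept different proportions. Over the 9 libraries the ratio of their CPM stayed within 0.979 to 1.41 for L3, 0.560 to 0.784 for L7, 0.414 to 0.565 for S25 and 0.247 to 0.470 for S9. The pair named L38, of the L14 family, was the exception. NewGene_2311 exceeded BC629DRAFT_1586850 by 2.84 to 3.41 times in 8 libraries and by 33.0 times in water replicate 2, where the former had 19.8 CPM and the latter 0.600. The sum of both was 20.4 CPM in that library, against 18.4 to 19.5 CPM in the other water libraries. The log2 changes of BC629DRAFT_1586850, 0.21 ± 0.57 with NH4Cl and 0.46 ± 0.56 with NaNO3, turned to -0.28 and -0.03 without water replicate 2.

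A further 17 genes, 15 of them tested, carry a mitochondrial ribosomal domain or protein name but no Swiss-Prot name. Their median log2 change was -0.25 with NH4Cl, -0.33 with NaNO3 and 0.00 between the salts. edgeR called 0 in each, where 0.675%, 5.06% and 1.09% of all tested genes were called. At an unadjusted p under 0.05, 4 of 15 were lower with NH4Cl and 4 with NaNO3. That is 26.7% each, against 11% and 14% of all tested genes. Between the salts 2 were higher with NH4Cl and 0 lower, against 10.9% and 10.2% of all genes. Of the 2 with the highest mean FPKM, L28 (BC629DRAFT_1593778) stood at 60.004, 56.5 and 57.2 CPM with water, at 61.5, 43.1 and 41.9 CPM with NH4Cl and at 47.1, 51.9 and 50.5 CPM with NaNO3. BC629DRAFT_1295471, named a ribosomal subunit protein, had 78.8 to 91.9 CPM with water and 59.3 to 70.1 CPM with NaNO3, without overlap (log2 change -0.42 ± 0.14, adjusted p = 0.103).

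The machinery around the ribosome was described from lists matched on product names. Of all tested genes edgeR called 0.675% with NH4Cl and 5.06% with NaNO3, so a single call says little about a short list. Of 10 tested mitochondrial translation factors, 0 were called with NH4Cl and 1 with NaNO3, at median log2 changes of -0.25 and -0.13. The called gene was elongation factor Ts (BC629DRAFT_516099), which recharges elongation factor Tu. It stood at 1.77, 1.65 and 1.51 CPM with water, at 0.682, 0.626 and 0.762 CPM with NH4Cl and at 0.728, 0.788 and 0.698 CPM with NaNO3. Both salts lay wholly below water, and the gene fell with NaNO3 by 1.15 ± 0.24 on the log2 scale (adjusted p = 0.0348, and 0.0646 without the 2 distant libraries). Of 13 tested mitochondrial aminoacyl-tRNA synthetases 0 were called in any comparison by edgeR, with medians of -0.10 and 0.08 against water. Valine tRNA ligase (BC629DRAFT_1582663), 1 of the 2 with the highest mean FPKM, stood at 211, 167 and 138 CPM with water and at 261, 253 and 215 CPM with NaNO3 (log2 change 0.50 ± 0.19, adjusted p = 0.153).

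Of 9 genes of mitochondrial gene expression and ribosome assembly, 0 were called with NH4Cl and 1 with NaNO3, at medians of -0.39 and -0.41. The shares called over all tested genes were 0.675% and 5.06%. The mitochondrial RNA polymerase (BC629DRAFT_1582094), which transcribes the mitochondrial genome, stood at 22.8, 29.3 and 26.8 CPM with water, at 18.8, 18.8 and 22.7 CPM with NH4Cl and at 15.9, 15.6 and 18.3 CPM with NaNO3. It fell with NaNO3 by 0.66 ± 0.15 on the log2 scale (adjusted p = 0.0431, and 0.0571 without the 2 distant libraries). Of 23 genes of mitochondrial protein import 1 was called in each comparison with water, at medians of -0.34 and -0.22. It was tim44 (BC629DRAFT_1294481), which anchors the import motor at the inner membrane, at 19.2, 20.8 and 21.3 CPM with water, 11.7, 12.4 and 11.7 CPM with NH4Cl and 13.4, 15.0 and 14.5 CPM with NaNO3. It fell by 0.78 ± 0.12 with NH4Cl (adjusted p = 0.0415) and by 0.52 ± 0.12 with NaNO3 (adjusted p = 0.0431, and 0.0751 without the 2 distant libraries) on the log2 scale.

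The list of oxidative phosphorylation, to which the mitochondrial ribosome contributes core subunits, had 47 tested genes and medians of -0.18 with NH4Cl and -0.10 with NaNO3. With NH4Cl 1 was called lower, and with NaNO3 2 lower and 1 higher, where 0.675% and 5.06% of all tested genes were called. The external alternative NADH dehydrogenase (BC629DRAFT_1593480), a non-pumping enzyme that the name pattern picked up, stood at 117, 122 and 98.0 CPM with water, at 58.1, 55.8 and 65.8 CPM with NH4Cl and at 113, 105 and 103 CPM with NaNO3. It fell with NH4Cl by 0.91 ± 0.14 against water (adjusted p = 0.0420) and by 0.84 ± 0.14 against NaNO3 (adjusted p = 0.0416) on the log2 scale. Cytochrome b-c1 complex subunit 2 (BC629DRAFT_1498276) fell with NaNO3 by 0.82 ± 0.17 and the 51 kDa subunit of complex I (NewGene_968) by 0.54 ± 0.13 (adjusted p = 0.0371 and 0.0493). A succinate dehydrogenase assembly factor (BC629DRAFT_1437630), also not a subunit, rose with NaNO3 by 0.54 ± 0.12 over water (adjusted p = 0.0410), and NH4Cl was lower than NaNO3 by a log2 change of -0.70 ± 0.12 (adjusted p = 0.0416). Of the 10 calls in these lists around the ribosome, 7 were kept without the 2 distant libraries, while with single libraries left out 0 to 2 of 9 settings kept each of them.

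Cytosolic ribosomal proteins, the other ribosome of the cell, had 90 tested genes and median log2 changes of -0.02 with NH4Cl and -0.27 with NaNO3. In each, 0 were called and 0 had an unadjusted p under 0.05 by edgeR. Of all tested genes 0.675% and 5.06% were called, and 11% and 14% were lower at an unadjusted p under 0.05. The most abundant, S12-A (BC629DRAFT_1439438), stood at 802, 873 and 1328 CPM with water, at 1176, 1397 and 815 CPM with NH4Cl and at 249, 1191 and 820 CPM with NaNO3. NaNO3 replicate 1 was far below the rest, and the log2 change with NaNO3, -0.41 ± 0.50, was 0.02 without that library and NH4Cl replicate 3. S27a (BC629DRAFT_1596551) showed the same low library, at 304 CPM against 899 and 1240 CPM in the other NaNO3 replicates. Its log2 change with NaNO3 was -0.42 ± 0.48, and -0.006 without both distant libraries. The list's median with NaNO3 is not given here without NaNO3 replicate 1. Whether the mitochondrial and cytosolic sets differ from each other was not tested.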

How the data were processed

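RNA-seq libraries were made from 1 μg of total RNA with poly-T beads, per the labels' protocols, which cover plant and animal extraction without saying which was used. HISAT2 and StringTie were used, per the submitters' processing notes; versions, strandedness, genome build and settings are not given in the sources used here. The authors deposited 1 table with whole-number counts per gene, read as raw counts, and FPKM values. The table's other columns, per the file headers, hold the authors' DESeq2 log2 fold changes and FDR values (their calls needed an FDR under 0.01 and a 2-fold change), whose sign was turned for the 2 salts. The prefix of locus tags was dropped.

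Counts of all 9 libraries were fitted with edgeR 4.0.16 (R 4.3.3; filterByExpr, TMM, glmQLFit, glmQLFTest, group as the only term, common biological coefficient of variation 0.317), and p-values were adjusted by Benjamini-Hochberg over 14808 genes. A gene is called at an adjusted p under 0.05, and adjusted p-values are edgeR's unless another tool is named. Fold changes are log2 ± SE, the SE being the unshrunk change divided by the square root of F. Genes with a shared product name, overlapping new genes or antisense partners could share reads. The script was tested on simulated data. Members and lists were chosen with earlier results of these data known. Members were named when called, among the 3 largest changes each way in a comparison, or among the 6 highest or 3 lowest tested FPKM. Companion genes were named when called, or else the 2 of highest FPKM. Further members with an unadjusted p under 0.05 by edgeR were added after the values were seen. L10, L17, L27, NewGene_2311 and NewGene_3084 also met that limit, and their own log2 changes are not given. Alternatives were DESeq2 1.42.0, limma 3.58.1 (voom, and log2(FPKM + 1) or log2(FPKM + 0.1), kept at FPKM of at least 1 in 3 libraries), other scaling, no filter, only the groups compared, a replicate block and left-out libraries. Sequences were not used here.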

Additional observations from a re-analysis of the deposited data

How the results depend on the processing

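The members' median changes kept their direction against water under every alternative and moved by less than the spread between replicates. The ratios of their share of counts between groups did so too, but only the share of summed FPKM and the share without the new genes were tried. With single libraries left out, the median ran from -0.39 to -0.24 with NH4Cl, from -0.34 to -0.23 with NaNO3, and from -0.08 to 0.04 between the salts. Counts of called members depended on the method. For NH4Cl against water (0 called) they were 4 with DESeq2, 7 with limma-voom, 2 without both NH4Cl replicate 3 and NaNO3 replicate 1, and 0 to 1 without single libraries. For NaNO3 against water (1 called) they were 5 with DESeq2, 5 with limma-voom, 2 with limma on log2(FPKM + 1) or log2(FPKM + 0.1), 2 without both libraries, 0 with the replicate block, and 0 to 2 without single libraries. For NH4Cl against NaNO3 (0 called) they were 2 with DESeq2, 2 with limma-voom, and 0 to 0 without single libraries. Calls over all genes moved as well. Without single libraries, of 14953 to 15003 tested genes 0 to 202 were called lower with NH4Cl, 0 to 509 with NaNO3 and 0 to 299 between the salts. With NaNO3, limma called 350 of 14023 genes lower on log2(FPKM + 1) and 322 on log2(FPKM + 0.1). The shares for DESeq2, limma-voom and the fit without both libraries are given above. With only the groups compared, the 1 call with NaNO3 was L12 and not L32. Counts did not change with the 17 domain-only genes added or the 6 new genes left out, choices made after seeing the data. Deviations of same-numbered libraries from their group means had correlations of -0.28 to 0.29. With 3 libraries per group this cannot show whether the numbers mark a pairing or a shared batch. In edgeR's fit with the replicate block L32 had an adjusted p of 0.0945, and 0 of all genes were called in both comparisons with water.

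Of 1268 values for 67 gene results under alternatives, 20 changed sign, 35 became called and 146 lost a call. Only L32 with NaNO3 and the 10 calls in the lists around the ribosome had a call to lose. L32 kept its call in 9 of 19 alternatives, and each of the 10 in 2 to 7 of 17 or 19. Which design choice causes a change was not tested. For L16 with NH4Cl the sign turned to 0.0099 without the filter, 0.0114 on log2(FPKM + 1) with or without its filter, 0.0116 on log2(FPKM + 0.1), 0.0049 with only the groups compared and 0.0227 without both libraries. With single libraries left out, L16 ran from -0.0800 to 0.0545 (NH4Cl 3), L19 with NH4Cl from -0.147 to 0.00997 (NH4Cl 2), SWS2 with NH4Cl from -0.0330 (NH4Cl 1) to 0.287, and S10 with NH4Cl from -1.18 to 0.162 (NH4Cl 1). L38 BC629DRAFT_1586850 ran from -0.280 (water 2) to 0.591 with NH4Cl and from -0.0334 (water 2) to 0.838 with NaNO3. L39 with NaNO3 ran from -0.0358 (water 3) to 0.211, and S19 from -0.223 to 0.151 (water 1), with 0.0279 under limma-voom. S12-A of the cytosolic ribosome with NaNO3 ran from -0.886 to 0.00914 (NaNO3 1), with 0.0232 without both libraries. L12 and L37 have few counts, at 0 to 1.68 and 0.559 to 1.55 CPM.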
